A study of Mus musculus with 8 samples.

Results

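Oxidative phosphorylation (OXPHOS) subunit genes were identified by symbol in the count table of a Zfp462 knockout study. The rule took Nduf genes with a subunit letter (a, b, c, s or v) and a number, Sdha to Sdhd, Uqcr genes, Cyc1, Cox4 to Cox8 genes, Atp5 genes and the mt-Nd, mt-Co, mt-Atp and mt-Cytb genes, and passed over 8 symbols marked -ps as pseudogenes. It found 103 entries of the 55401 in the table, 90 encoded in the nucleus and 13 in the mitochondrial genome. By complex these were 47 for complex I (7 of them mitochondrial), 4 for complex II, 10 for complex III (1 mitochondrial), 22 for complex IV (3 mitochondrial) and 20 for complex V (2 mitochondrial). Ndufa4 and Ndufa4l2 were placed in complex I by their symbols, although Ndufa4 is now counted with complex IV. Cox7a2l, a supercomplex assembly factor, was kept with its family. The rule misses the complex I acyl carrier Ndufab1, the complex V subunit Usmg5 and the complex V inhibitor Atpif1. Annotation marks 4 of the entries (Ndufa11b, Ndufb4c, Ndufs6b and Cox6c2) as processed pseudogenes, and Atp5o is listed under 2 identifiers.

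RNA came from R1, a line of mouse embryonic stem cells (ESCs), and 4 groups of 2 libraries were compared. Control ESCs (labelled wild type) and Zfp462 knockout ESCs were kept undifferentiated on gelatin in serum with leukaemia inhibitory factor (LIF), at day 0. Control and knockout embryoid bodies (EBs) were cells of the same genotypes after 3 days of growth in Petri dishes. The design text calls the knockout lines stable, and the labels do not say how many clones there were or whether the replicates were separate cultures, and p-values therefore reflect nothing beyond the spread of these libraries, which may be technical.

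The respiratory chain passes electrons from NADH through complex I, or from succinate through complex II, to complex III, cytochrome c and complex IV, where oxygen is reduced. Complexes I, III and IV pump protons across the inner mitochondrial membrane, and complex V, the ATP synthase, uses the gradient to make ATP. Complexes I, III, IV and V are built from subunits of both genomes, whereas complex II is nuclear-encoded throughout. Pluripotent cells are known for a high rate of glycolysis alongside respiration, and some subunits have tissue-specific isoforms.

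A first pair of sequences is shown because it bears on the counting, and the promoters after it are descriptions only. On counting, several mitochondrially encoded genes have near-identical copies on chromosome 1, and a read from one can be assigned to the other. The mt-Nd3 transcript and the unprocessed pseudogene Gm28438 (mm10, chr1:24612775-24613119, minus strand) differ by 1 substitution over 345 aligned bases, T3C, with positions counted from the first base of mt-Nd3 and the differing base in capitals. Both are GENCODE M21 transcript sequences, of which the first 120 aligned bases are shown.
mt-Nd3: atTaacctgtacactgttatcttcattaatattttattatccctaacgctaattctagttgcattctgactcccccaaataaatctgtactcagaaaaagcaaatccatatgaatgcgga
Gm28438: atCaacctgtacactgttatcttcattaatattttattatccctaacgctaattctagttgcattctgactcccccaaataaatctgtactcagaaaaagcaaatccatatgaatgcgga

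The next pair of sequences belongs to Cox6b2, whose level fell between ESCs and EBs, and its ubiquitous paralogue Cox6b1. Their RefSeq promoter windows (GRCm38.p6, 250 bases before to 50 after the annotated start, printed on the gene's strand) are chr7:4753045-4753344 and chr7:30626065-30626364, both on the minus strand of chromosome 7. CpG dinucleotides are in capitals, and no relation of CpG content to the levels was tested. The Cox6b2 window holds 10 and the Cox6b1 window 17, against a median of 19 over 73 windows of nuclear members and 7 over all 32851 windows.
Cox6b2: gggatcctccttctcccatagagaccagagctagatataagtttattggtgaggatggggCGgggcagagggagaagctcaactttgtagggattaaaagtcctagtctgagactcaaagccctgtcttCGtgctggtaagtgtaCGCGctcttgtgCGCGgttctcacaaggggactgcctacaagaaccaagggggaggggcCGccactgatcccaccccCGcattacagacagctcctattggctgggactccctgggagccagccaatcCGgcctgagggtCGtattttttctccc
Cox6b1: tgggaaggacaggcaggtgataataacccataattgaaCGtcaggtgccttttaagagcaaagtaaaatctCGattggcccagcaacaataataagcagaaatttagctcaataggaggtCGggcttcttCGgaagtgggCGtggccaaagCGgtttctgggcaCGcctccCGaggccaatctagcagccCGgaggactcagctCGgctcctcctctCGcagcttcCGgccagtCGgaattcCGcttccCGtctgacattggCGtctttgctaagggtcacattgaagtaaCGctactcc

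Promoters of the nuclear members were also searched for shared motifs. Of the 89 nuclear symbols, 68 had a promoter in the table. They were searched on both strands for the NRF1 core motif, the ETS motif CCGGAAGT, the oestrogen-related receptor (ERR) motif TCAAGGTCA and the YY1 core motif, factors known to bind promoters of respiratory genes. None of the 4 motifs contains another. The NRF1 motif was found for 5 members (Atp5g2, Atp5k, Cox6a1, Ndufa11 and Uqcrc1), 7.35% against 1.07% of 27025 genes. The YY1 motif was found for 5 members (Atp5j, Ndufa9, Ndufs4, Ndufs6 and Ndufs7), 7.35% against 0.995%. The ETS motif was found for 5 members (Atp5h, Cox8a, Ndufs3, Uqcr11 and Uqcrh), 7.35% against 4.31%, and the ERR motif for Atp5g3 and Sdhd, 2.94% against 0.466%. At least 1 of the motifs was present in 17 of 68 members and in 6.61% of all genes, and the median GC content of the windows was 57.8% for members and 52.8% for all. Matches describe the letters of these windows only. Of the members called below, Sdhd (chr9:50603800-50604099, minus strand) holds the ERR motif and Ndufs3 (chr2:90904672-90904971, minus strand) the ETS motif, shown in capitals.
Sdhd: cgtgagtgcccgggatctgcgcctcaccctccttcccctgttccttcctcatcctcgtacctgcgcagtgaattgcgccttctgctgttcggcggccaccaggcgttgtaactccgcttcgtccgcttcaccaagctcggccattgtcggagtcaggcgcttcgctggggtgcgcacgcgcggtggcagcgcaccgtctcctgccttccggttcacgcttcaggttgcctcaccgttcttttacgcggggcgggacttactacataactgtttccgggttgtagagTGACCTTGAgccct
Ndufs3: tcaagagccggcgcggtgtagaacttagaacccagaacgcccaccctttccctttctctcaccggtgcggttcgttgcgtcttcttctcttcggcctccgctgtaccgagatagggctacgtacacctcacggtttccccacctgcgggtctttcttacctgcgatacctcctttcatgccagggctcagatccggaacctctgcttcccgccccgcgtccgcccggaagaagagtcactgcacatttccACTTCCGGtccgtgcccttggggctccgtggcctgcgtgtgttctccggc

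The libraries held 12119763 to 16228426 counts, and 17125 genes had enough counts to be tested. Zfp462 itself was at 183 and 197 CPM in control ESCs, 104 and 107 in knockout ESCs, 154 and 130.3 in control EBs, and 102 and 102 in knockout EBs (CPM, counts scaled by TMM-adjusted library sizes). It fell by 0.85 on the log2 scale in knockout ESCs (SE 0.10, edgeR adjusted p = 0.000366) and by 0.47 in knockout EBs (SE 0.10, adjusted p = 0.0207), and transcripts of the gene were still counted in all knockout libraries. The call in EBs was lost without control EB replicate 1, either knockout EB library or either control ESC library (adjusted p up to 0.212). All 8 ESC markers and all 5 epiblast markers were detected in every library. Summed ESC markers were at 3630 and 3672 CPM in control and 2578 and 2448 CPM in knockout ESCs. In EBs they were at 1537 and 1463 CPM in control and 1600 and 1570 CPM in knockout cells. These sums hide estimates in both directions. In knockout against control EBs the log2 estimates were -0.19 for Pou5f1, -0.39 for Sox2, 0.41 for Nanog and 0.44 for Zfp42. Those for Esrrb, Klf4, Tfcp2l1 and Dppa3 were 0.25, 1.11, 1.09 and 0.46. Summed epiblast markers were at 308 and 332 CPM in control and 367 and 351 CPM in knockout ESCs. In EBs these were at 1806 and 1916 CPM in control and 1133 and 1114 CPM in knockout cells. Single epiblast markers also differed in direction in knockout against control ESCs. Their log2 estimates were 0.75 for Fgf5, -0.38 for Otx2, 0.43 for Dnmt3b, -0.9 for Pou3f1 and -0.15 for Sall2. Summed markers of extraembryonic endoderm (8 of 8 detected) were at 1099 and 1146 CPM in control and 4659 and 4547 CPM in knockout ESCs, and at 1539 and 1576 CPM in control and 3253 and 3567 CPM in knockout EBs. Markers of liver summed to 2538 CPM (15 of 15 at 1 CPM or more, Alb at 1335 CPM) in knockout EB replicate 1 and to 21.4 to 155.7 CPM in the other 7 libraries, in which 10 to 15 of 15 had a count. Fibroblast markers, which feeder cells would carry, summed to 17.8 to 26.7 CPM with 5 of 6 detected. In knockout ESC replicate 2 the tenth of genes lowest in GC content had a median log2 level of 0.20 relative to the mean over the libraries and the tenth highest in GC content one of -0.54. Between the knockout ESC replicates the log2 difference of the 85 tested nuclear members had a correlation across genes with GC content of -0.449, against 0.041 to 0.058 in the other groups. Genes are not independent replicates, so this describes those libraries only.

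Expression of the OXPHOS genes was high, and few of them passed the test in any comparison. Of the 103 entries, 98 passed the low-count filter (85 nuclear and all 13 mitochondrial). Cox6a2 and the second Atp5o identifier had 0 counts in every library, which allows a level of up to 0.185 to 0.248 CPM (3 counts per library), and Ndufa11b, Cox8b and Cox8c had too few counts to test. The nuclear members took 1.02% to 1.12% of all counts and the mitochondrial members 2.19% to 2.64%. Per length, the median level of the 85 nuclear members was 48.6 RPKM, against 4.06 RPKM for all genes tested. The heat map of relative levels shows how narrow the spread was for most members.

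**Figure D1:**
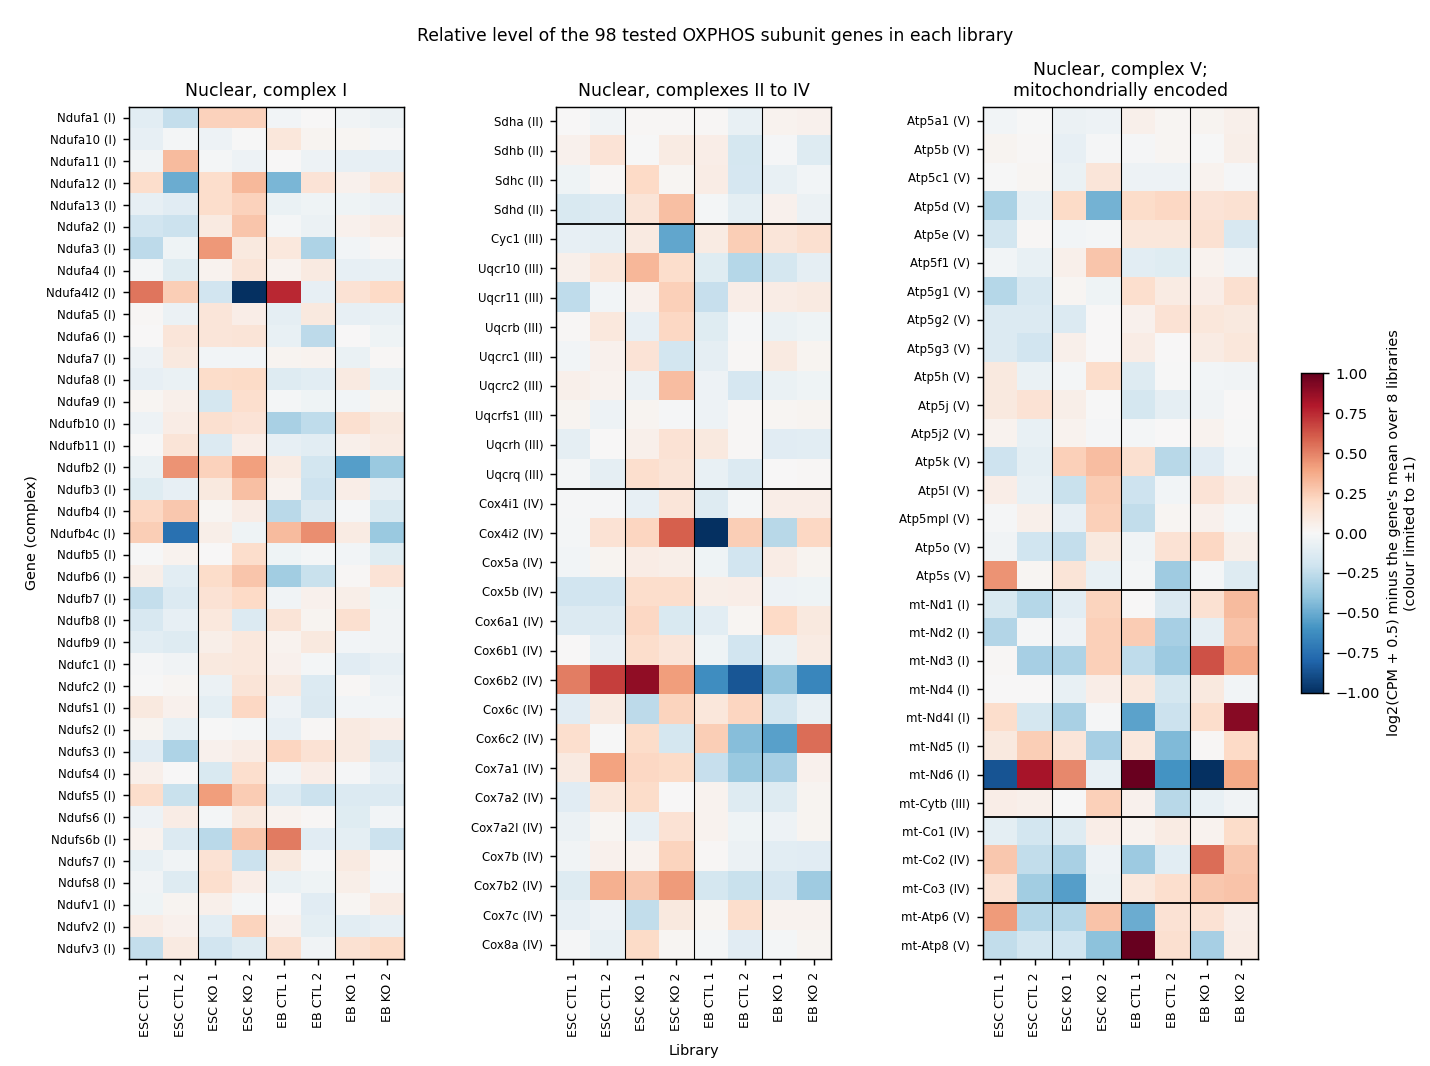
Colour gives log2(CPM + 0.5) of each tested gene minus its mean over the 8 libraries (columns, grouped by vertical lines), limited to 1 unit either way; rows are genes with their complex, and horizontal lines separate complexes and genomes. Most rows are pale, Cox6b2 is higher in all 4 ESC libraries than in the 4 EB libraries, and mt-Nd6 differs between replicates.

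In knockout ESCs 4 of the 98 tested members rose and none fell (edgeR quasi-likelihood test, Benjamini-Hochberg adjusted p below 0.05 over all 17125 genes). Over all genes tested, 8.3% were called higher and 6.2% lower, so in this fit the members called were a smaller share than the background in both directions. This did not hold in every alternative. Without the low-count filter 7 of 101 members were called higher, against 5.14% of all genes. At an unadjusted p below 0.05 the count was 17 of 98 members, against 4764 of all 17125 genes. DESeq2 called 4 members higher and 1 lower, against 7.8% and 5.94% of all genes. In knockout EBs 1 member rose and none fell, where 4.75% of all genes rose and 2.04% fell. There 7 of 98 members had an unadjusted p below 0.05, against 3667 of all 17125 genes. DESeq2 called 3 members higher and none lower, against 5.02% and 2.43% of all genes. From ESCs to EBs, 3 members rose and 2 fell in control cells (8.6% and 9.63% of all genes), and 1 rose and 2 fell in knockout cells (8.23% and 7.11%). The knockout effect itself differed between EBs and ESCs for no member by edgeR (0.742% of all genes called higher and 0.642% lower). At an unadjusted p below 0.05 this interaction counted 11 of 98 members, against 2136 of all 17125 genes. DESeq2 called 1 member higher and none lower, against 1.25% and 1.04% of all genes. A correction of GC trends per library turned the split over all genes to 10.3% higher and 14.2% lower in knockout ESCs, 6.69% and 13.1% in knockout EBs, and 15.5% and 11.1% in control differentiation. Library totals in place of composition factors turned it to 6.64% and 9.15% in knockout differentiation. The comparisons share libraries: control ESCs serve both the knockout contrast in ESCs and control differentiation, and each other group likewise enters 2 contrasts.

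Intervals around the estimates show how precise each comparison was. In knockout against control ESCs, 74 of 98 members had a 95% interval that lay within a change of 1.5-fold in either direction (34.8% of all genes tested). Above a mean of 20 CPM, where counting error is smaller, 85.9% of the 85 members and 68.0% of 7710 genes had such an interval. The corresponding counts of members were 77 of 98 in knockout against control EBs, 75 in control differentiation, 73 in knockout differentiation and 58 for the interaction. Among the 85 nuclear members the counts were 70, 71, 70 and 67 in the 4 contrasts. Among the 13 mitochondrial members they were 4, 6, 5 and 6. For the remaining members a change of 1.5-fold was not excluded by the interval, and a member that was not called was not shown to be unchanged. Median log2 changes of the members were 0.07, 0.05, -0.01 and -0.08 in the 4 contrasts, against -0.03, 0.00, -0.01 and 0.00 for all genes tested.

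**Figure D2:**
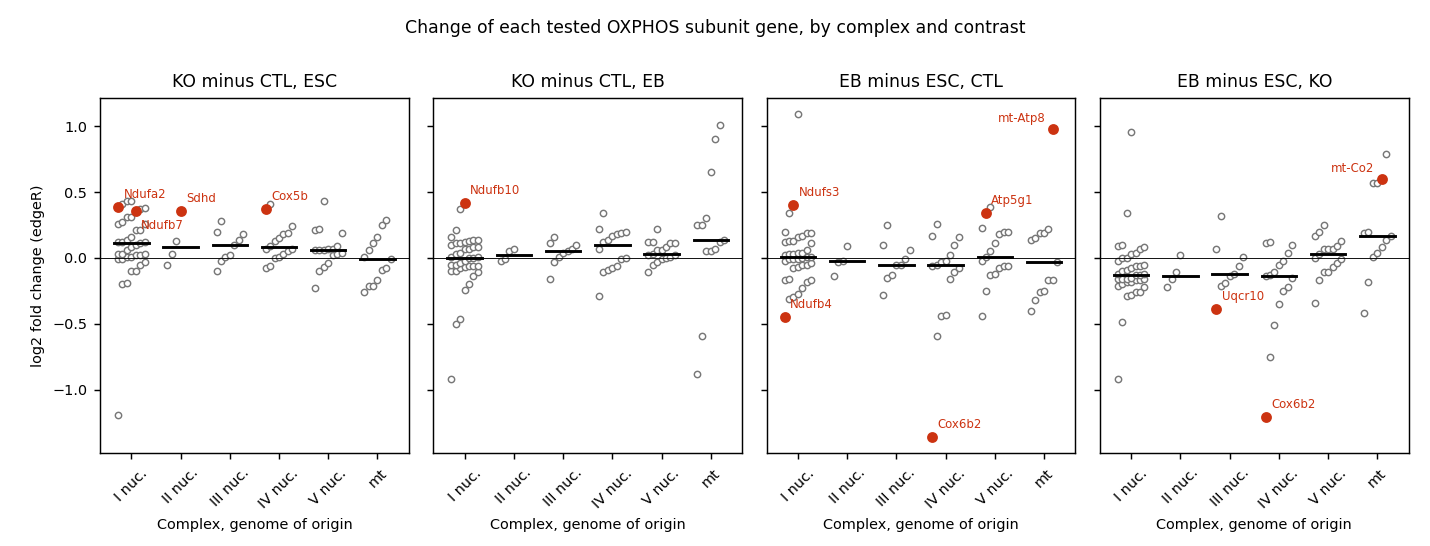
Each point is the log2 fold change of 1 tested member in the contrast named above the panel; columns are the nuclear members of complexes I to V and the mitochondrially encoded members (mt), bars are medians, and filled red points have an edgeR adjusted p below 0.05. Most points lie between -0.5 and 0.5, and Cox6b2 is the lowest point in both differentiation panels.

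Complex I, the NADH dehydrogenase, had 39 tested nuclear members. In knockout ESCs 2 rose, none fell and 30 of 39 estimates lay above 0 (8.3% of all genes tested rose and 46.8% of their estimates lay above 0). The median log2 change of the 39 was 0.11. Ndufa2, an accessory subunit of the matrix arm, was measured at 39.3 and 38.8 CPM in control ESCs, 47.8 and 54.5 in knockout ESCs, 44.4 and 43.3 in control EBs, and 46.3 and 47.4 in knockout EBs. Both knockout ESC libraries lay above all others, and the change of 0.39 ± 0.11 (log2, SE) passed the test (adjusted p = 0.0364). Ndufb7, an accessory subunit of the membrane arm, was at 60.5 and 65.1 CPM in control ESCs, 79.2 and 82.1 in knockout ESCs, 69.9 and 73.5 in control EBs, and 74.6 and 69.4 in knockout EBs. It rose in knockout ESCs by 0.36 ± 0.10 (adjusted p = 0.0301), with both knockout libraries above both control libraries. The Ndufb7 call was lost when any of 6 of the 8 libraries was left out, that is, each control ESC and each EB library (adjusted p up to 0.256). The Ndufa2 call was lost without any of the same 6 (adjusted p up to 0.249), by DESeq2 and after removal of GC and length trends. Both were lost when the fit held only the ESC libraries. Ndufa2 shares 66 exonic bases with Tmco6 on the opposite strand. Summed extraembryonic endoderm markers were higher in the knockout than in the control ESC libraries, at the values given above, and their part in these differences was not tested. In bulk RNA, fewer cells of a type and less RNA per cell cannot be told apart.

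In knockout EBs the 1 member called was Ndufb10, a further accessory subunit of the membrane arm. Its levels were 56.7 and 61.9 CPM in control ESCs, 65.8 and 64.7 in knockout ESCs, 46.7 and 49.2 in control EBs, and 65.6 and 62.9 in knockout EBs. The control EB libraries were the lowest of the 8, and the other 6 lay within 56.7 to 65.8 CPM. The difference in EBs was 0.42 ± 0.10 (adjusted p = 0.0318, 95% interval 0.20 to 0.64) and that in ESCs 0.14 ± 0.10 (adjusted p = 0.411), and the interaction did not pass (adjusted p = 0.45). The call was lost without any of the 4 EB libraries, including knockout EB replicate 1 with its liver transcripts, and without either control ESC library (adjusted p up to 0.281), and after removal of GC and length trends.

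From control ESCs to control EBs, Ndufs3 rose and Ndufb4 fell. Ndufs3 is a core subunit of the matrix arm, and its levels were 52.8 and 46.0 CPM in control ESCs, 58.9 and 60.3 in knockout ESCs, 66.6 and 63.2 in control EBs, and 61.0 and 51.7 in knockout EBs. Control EBs were the highest of the 4 groups, and the change was 0.40 ± 0.12 (adjusted p = 0.0387). In knockout cells the change was -0.08 ± 0.12 (adjusted p = 0.679), and the difference between the 2 changes did not pass (-0.48, adjusted p = 0.248). Reads of Ndufs3 can be shared with Gm12251, a copy that matches 75.7% of the transcript at 98.6% identity. Ndufb4, an accessory subunit of the membrane arm, was at 37.5 and 39.2 CPM in control ESCs, 32.7 and 34.1 in knockout ESCs, 26.9 and 29.2 in control EBs, and 32.1 and 29.1 in knockout EBs. Both control ESC libraries were above the other 6, and the change in control cells was -0.45 ± 0.12 (adjusted p = 0.0241). The pseudogene Ndufb4c, itself in the list by its symbol at a mean of 0.574 CPM, is identical to Ndufb4 over 390 bases. Each of these 2 calls was lost without any control library or either knockout EB library (adjusted p up to 0.317 for Ndufs3 and 0.178 for Ndufb4), and Ndufs3 also with library totals in place of composition factors.

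Levels within complex I spanned a wide range per length. Ndufa4 was highest, with a mean over the 8 libraries of 85.5 RPKM, followed by Ndufa2 at 79.1, and the median of the nuclear members was 29.6 RPKM. Ndufb2 was lowest at 0.568 RPKM, from 2.93 and 4.42 CPM in control ESCs, 3.72 and 4.29 in knockout ESCs, 3.31 and 2.67 in control EBs, and 1.96 and 2.28 in knockout EBs. The deposited length of a gene is that of all its merged exons, 5628 bases for Ndufb2 against 1550 for the median nuclear member, so RPKM understates genes with long merged models. Even without the length Ndufb2 had the fewest counts of the complex I genes not annotated as pseudogenes. Ndufa4l2, a hypoxia-responsive paralogue of Ndufa4, was at 13.6 and 11 CPM in control ESCs, 8.02 and 2.69 in knockout ESCs, 15.8 and 8.71 in control EBs, and 10.2 and 10.7 in knockout EBs. Both knockout ESC libraries lay below both control ESC libraries but differed from each other, and the change of -1.19 ± 0.42 did not pass (adjusted p = 0.0894). Ndufa4 itself stayed between 108 and 129 CPM in all libraries.

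Complex II, succinate dehydrogenase, has 4 subunits, all tested. The flavoprotein Sdha was at 254 to 276 CPM and the iron-sulphur subunit Sdhb at 72.8 to 90.6 CPM, and neither was called in any contrast. Of the membrane anchors, Sdhc had the lowest level of the complex per length (28.6 RPKM) and Sdhd the highest (91.7 RPKM). Sdhd rose in knockout ESCs. Its levels were 101 and 102 CPM in control ESCs, 123 and 138 in knockout ESCs, 111 and 105 in control EBs, and 116 and 108 in knockout EBs, so that both knockout ESC libraries were above the other 6. The change was 0.36 ± 0.10 in ESCs (adjusted p = 0.03) and 0.05 ± 0.10 in EBs (adjusted p = 0.807). The call in ESCs was lost without either control ESC library or any EB library (adjusted p up to 0.211), when the fit held only the ESC libraries, and after removal of GC and length trends. That removal also turned the EB estimate to -0.25 (adjusted p = 0.0486).

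Complex III, cytochrome bc1, had 9 tested nuclear members, of which 1 was called. Uqcr10, a small accessory subunit, had the highest level per length of the nuclear members of the complex (210.4 RPKM), and Uqcrq the lowest (61.8 RPKM). Uqcr10 was at 126 and 131 CPM in control ESCs, 154 and 137 in knockout ESCs, 112 and 99.8 in control EBs, and 108 and 114 in knockout EBs. All 4 EB libraries lay below all 4 ESC libraries. The fall passed the test in knockout cells (-0.39 ± 0.10, adjusted p = 0.0271) and not in control cells (-0.28 ± 0.10, adjusted p = 0.0779), and the 2 changes were not shown to differ (adjusted p = 0.829). The knockout call was lost without either control ESC library or any EB library (adjusted p up to 0.229), and when the fit held only the knockout libraries. The antisense gene 4930481A15Rik matches 185 bases of Uqcr10 at 96.8% identity on the other strand. Electron transfer in the complex depends on the Rieske protein Uqcrfs1 and cytochrome c1. Uqcrfs1 was at 107 to 113 CPM throughout, and Cyc1 at 156 and 155 CPM in control ESCs, 175 and 115 in knockout ESCs, 175 and 196 in control EBs, and 179 and 184 in knockout EBs, lowest in knockout ESC replicate 2 and called in no contrast. The core subunits Uqcrc1 and Uqcrc2 were at 239 to 298 and 146 to 204 CPM and were called in none.

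Complex IV, cytochrome c oxidase, had 16 tested nuclear members. Cox5b, a matrix-side subunit that binds zinc, was at 86.2 and 86.2 CPM in control ESCs, 111 and 111 in knockout ESCs, 103 and 103 in control EBs, and 95.0 and 95.8 in knockout EBs. The 2 knockout ESC libraries were the highest and the 2 control ESC libraries the lowest of the 8. The rise in knockout ESCs was 0.37 ± 0.09 (adjusted p = 0.0156, 95% interval 0.18 to 0.56), and the estimate in EBs was -0.11 ± 0.09 (adjusted p = 0.511). The difference between them was -0.48 ± 0.12 and did not pass (adjusted p = 0.102). The call was lost without either control ESC library or either knockout EB library (adjusted p up to 0.159), after removal of GC and length trends, and when the fit held only the ESC libraries. It held without knockout ESC replicate 1 and without replicate 2. Gm11273 matches 390 bases of the Cox5b transcript at 99.2% identity, so reads from those bases can be shared.

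Cox6b2 was the member whose calls held under all 19 alternative analyses, in control and in knockout differentiation. It encodes the testis isoform of Cox6b, a subunit that faces the intermembrane space. Its levels were 39.8 and 45.03 CPM in control ESCs, 51.8 and 37.3 in knockout ESCs, 17.9 and 15.1 in control EBs, and 21.0 and 17.5 in knockout EBs. Every ESC library was at or above 37.3 CPM and every EB library at or below 21.0 CPM. The change was -1.36 ± 0.18 in control cells (0.390-fold, adjusted p = 0.000672, 95% interval -1.76 to -0.96) and -1.21 ± 0.18 in knockout cells (0.433-fold, adjusted p = 0.00173, 95% interval -1.60 to -0.81). With 1 library left out at a time, the adjusted p ranged up to 0.0232 and 0.0198. The knockout did not change it detectably in ESCs (0.07 ± 0.17, adjusted p = 0.843) or in EBs (0.22 ± 0.18, adjusted p = 0.555), and the interaction was 0.15 ± 0.25 (adjusted p = 0.876). Cox6b1, the isoform of other tissues, was at 100.5 and 94.8 CPM in control ESCs, 113 and 109 in knockout ESCs, 97.3 and 87.6 in control EBs, and 95.5 and 106 in knockout EBs. Its changes over differentiation were -0.08 ± 0.10 in control (adjusted p = 0.633) and -0.14 ± 0.10 in knockout cells (adjusted p = 0.371). Per length Cox6b1 averaged 142 RPKM and Cox6b2 27.7 RPKM. The 6 germ line markers were all detected and summed to 82.6 to 108 CPM in ESCs and 84.8 to 96.8 CPM in EBs. Single markers moved in both directions. For Ddx4, Dazl, Mael, Sycp3, Sycp1 and Taf7l the log2 estimates were 0.23, -0.31, 0.75, 0.62, -0.36 and 0.49 in control differentiation. In knockout differentiation they were 0.15, -0.73, 0.18, 1.48, -0.71 and -0.02.

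In the other isoform families the widely expressed form was also the more abundant. Cox4i1 averaged 227 RPKM and the lung isoform Cox4i2 3.45 RPKM. Cox6a1 averaged 174 RPKM, and the muscle isoform Cox6a2 had no count. Cox7a2 averaged 93.6 and Cox7a2l 68.2 RPKM, against 13.6 for the muscle isoform Cox7a1. Cox7a1 was at 7.65 and 9.58 CPM in control ESCs, 8.31 and 8.22 in knockout ESCs, 6.03 and 5.41 in control EBs, and 5.57 and 7.38 in knockout EBs, with estimates of -0.59 ± 0.23 and -0.35 ± 0.23 over differentiation that did not pass (adjusted p = 0.104 and 0.333). Cox7b averaged 120.4 and Cox7b2 3.96 RPKM. Cox8a, at 249 RPKM, had the highest level of the nuclear complex IV members, while Cox8b and Cox8c reached at most 0.218 and 0.655 CPM in any library. None of the 9 tested genes of these 5 families other than Cox6b was called in any contrast, a statement about calls and not about equality. Cardiac and skeletal muscle markers summed to 36.3 to 53.9 CPM, with 8 or 9 of 9 detected in each library.

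**Figure D3:**
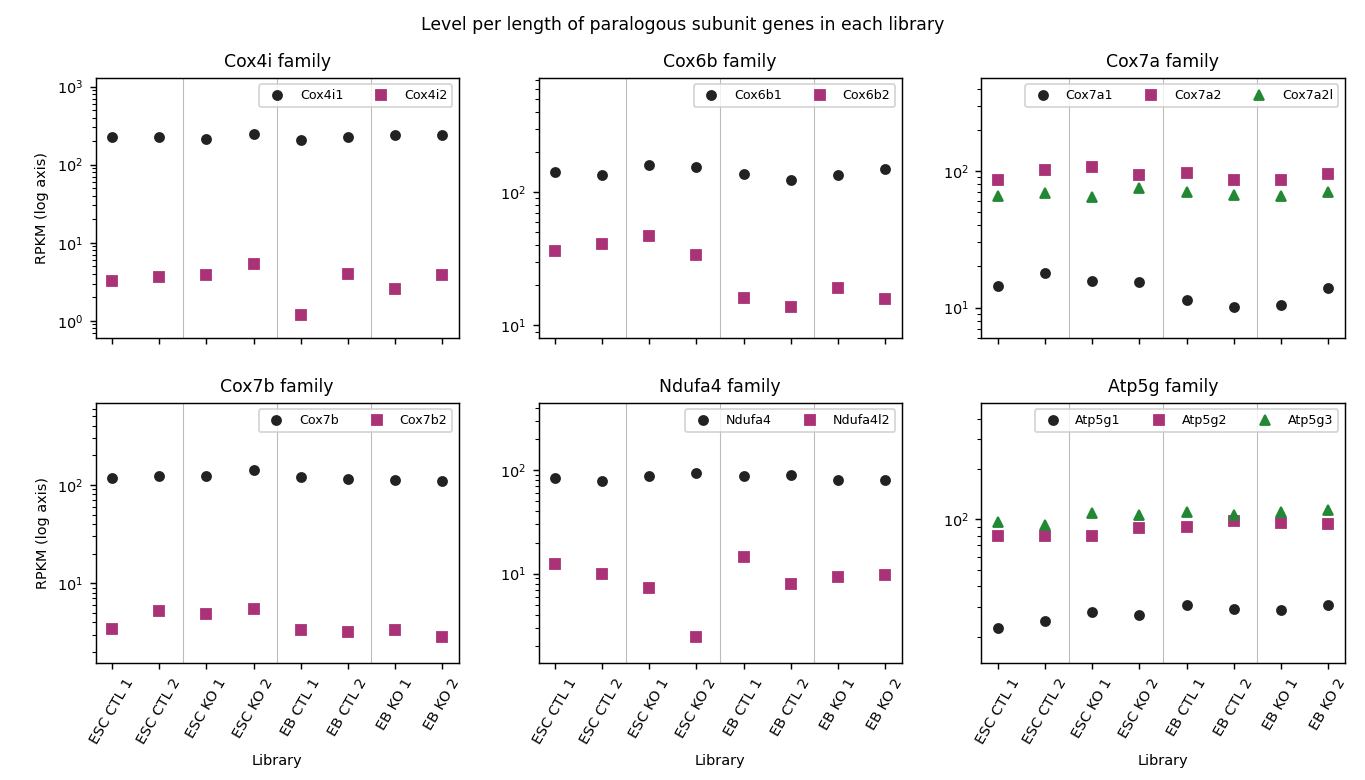
Level per length (RPKM, log axis) of paralogous subunit genes in each of the 8 libraries, 1 panel per family, with vertical lines between groups. Cox6b2 is lower in the 4 EB libraries than in the 4 ESC libraries while Cox6b1 stays near 142 RPKM; Ndufa4l2 is lowest in knockout ESC replicate 2.

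Complex V, ATP synthase, had 17 tested nuclear members. Atp5b, the catalytic beta subunit of its head, and Atp5a1, the alpha subunit, had the highest levels per length of all nuclear members (485 and 337 RPKM). Atp5b was at 2093 and 2072 CPM in control ESCs, 1937 and 2039 in knockout ESCs, 2039 and 2081 in control EBs, and 2047 and 2134 in knockout EBs. These values lay within 1937 to 2134 CPM, and the log2 estimates in the 4 contrasts ran from -0.07 to 0.07. Atp5s, also called coupling factor B, was lowest at 4.35 RPKM. Subunit c of the rotor ring is encoded by 3 genes whose mature proteins are identical. Atp5g1 was at 111 and 121 CPM in control ESCs, 137 and 132 in knockout ESCs, 152 and 143 in control EBs, and 142 and 152 in knockout EBs. Its control ESC libraries were the lowest of the 8, and it rose in control differentiation by 0.34 ± 0.09 (adjusted p = 0.0273). In knockout cells the estimate was 0.13 ± 0.09 (adjusted p = 0.39). Estimates for Atp5g2 and Atp5g3 in control differentiation were 0.23 ± 0.09 and 0.20 ± 0.08 and did not pass (adjusted p = 0.104 and 0.107). Per length Atp5g3 averaged 106, Atp5g2 88.2 and Atp5g1 27.7 RPKM, the last with a merged length of 4912 bases. The Atp5g1 call was lost without any control library or either knockout EB library (adjusted p up to 0.231), and 411 bases of its transcript match Gm10039 at 99.8% identity. Atp5o, the subunit that joins head and stalk, was at 44.6 to 60.9 CPM under its first identifier. Its second identifier shares 54.2% of its exonic bases with Donson and 45.8% with the first.

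The 13 mitochondrially encoded genes are transcribed from both strands of the mitochondrial genome as long precursors, all but mt-Nd6 from the same strand. Per length mt-Co1, the catalytic core of complex IV, was highest by far, at a mean of 9141 RPKM. It gave 56.9% to 65.0% of the counts of the mitochondrial members. mt-Nd1 (3143 RPKM), mt-Cytb of complex III (2087 RPKM) and mt-Nd2 (1144 RPKM) followed. mt-Nd5 and mt-Nd4 were at 795 and 722 RPKM and mt-Nd6 at 428 RPKM. The 6 genes from mt-Co2 to mt-Nd4l in genome order were much lower, with 229 RPKM for mt-Co2, 45.8 for mt-Atp8, 151 for mt-Atp6, 135 for mt-Co3, 14.9 for mt-Nd3 and 33.4 for mt-Nd4l.

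These 6 genes lie next to each other, and all but mt-Atp8 had their own near-identical copy in the annotation of chromosome 1. There, 7 unprocessed pseudogenes fill a block of 4663 bases (mm10, chr1:24611535-24616197, minus strand). Gm28661 matched 681 of 684 bases of mt-Co2 with 0 mismatches, Gm10925 matched 678 of 681 bases of mt-Atp6 with 0, Gm28437 matched 783 of 784 bases of mt-Co3 with 0, and Gm10222 matched 294 of 297 bases of mt-Nd4l with 0. The copies carried counts of the same order as the genes. The means over the 8 libraries were 156.6 CPM for mt-Co2 and 77.6 CPM for Gm28661, 103 for mt-Atp6 and 115 for Gm10925, 105.5 for mt-Co3 and 72.7 for Gm28437, 5.17 for mt-Nd3 and 8.93 for Gm28438, and 9.92 for mt-Nd4l and 7.31 for Gm10222. The copies of mt-Co1 (Gm29216, 31.3% of the gene) and mt-Nd4 (Gm28439, 63.6%) are partial, at 61.8 and 21.9 CPM against 14120 and 994.5 CPM for the genes. The treatment of reads that match 2 places is not given here, and the levels of the 5 genes with full-length copies are therefore uncertain. The part of the copies in the low levels of these genes was not tested.

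**Figure D4:**
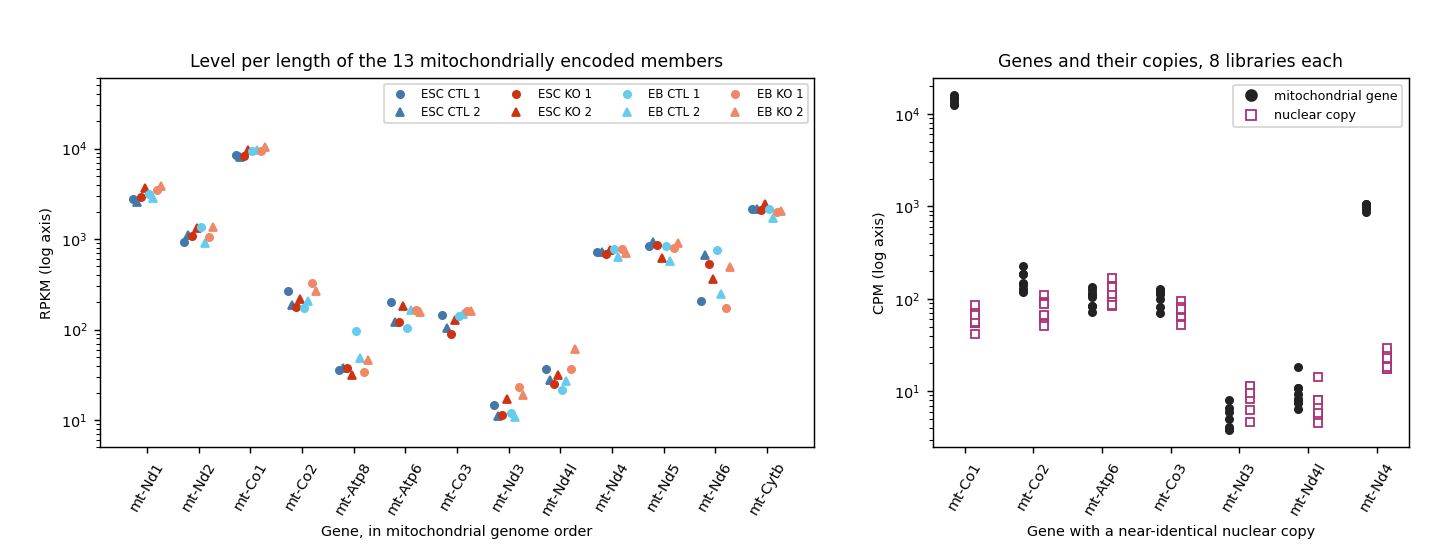
Left, level per length (RPKM, log axis) of the 13 mitochondrially encoded genes in the order of the mitochondrial genome, 1 symbol per library; right, CPM (log axis) of the 7 genes with a near-identical nuclear copy (filled) and of the copy (open) in each of the 8 libraries. The run from mt-Co2 to mt-Nd4l is low, and for mt-Co2, mt-Atp6, mt-Co3, mt-Nd3 and mt-Nd4l the copies lie in the range of the genes.

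Of the 13 genes, none was called in knockout against control cells, in ESCs or in EBs, by edgeR or by DESeq2. At an unadjusted p below 0.05 the count was 1 in ESCs and 5 in EBs, against 4764 and 3667 of all 17125 genes. mt-Co1 was at 13190 and 12430 CPM in control ESCs, 12860 and 14770 in knockout ESCs, 14430 and 14880 in control EBs, and 14410 and 16020 in knockout EBs. Its log2 estimates were 0.11 ± 0.07 in knockout ESCs (adjusted p = 0.361) and 0.05 ± 0.07 in knockout EBs (adjusted p = 0.722). mt-Nd1 was at 2676 and 2445 CPM in control ESCs, 2763 and 3480 in knockout ESCs, 2992 and 2690 in control EBs, and 3304 and 3714 in knockout EBs, with both knockout libraries above both control libraries in each state. The estimates of 0.29 ± 0.11 and 0.30 ± 0.11 did not pass (adjusted p = 0.106 and 0.123). mt-Cytb (1958 to 2800 CPM), mt-Nd4 (878 to 1066 CPM), mt-Nd2 (929 to 1428 CPM) and mt-Nd5 (1052 to 1698 CPM) were called in no contrast. Their 4 estimates each ran from -0.18 to 0.06, -0.03 to 0.07, 0.01 to 0.25 and -0.32 to 0.25 (log2). mt-Nd6, the gene of the opposite strand, varied most between replicates, at 107 and 347 CPM in control ESCs, 274 and 186 in knockout ESCs, 389 and 129 in control EBs, and 89.4 and 254 in knockout EBs. The higher replicate differed from group to group, and 14 of its bases overlap mt-Nd5 on the other strand, which the counting may not have separated because the strand setting is not given.

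Between ESCs and EBs, 1 mitochondrial gene was called in each genotype, and both calls were fragile. mt-Co2, a core subunit of complex IV, was at 184 and 129 CPM in control ESCs, 122 and 148 in knockout ESCs, 118 and 142 in control EBs, and 225 and 184 in knockout EBs. The knockout EB libraries were above the knockout ESC libraries, and the change of 0.60 ± 0.17 passed (adjusted p = 0.043). The estimate in control cells was -0.26 ± 0.17 (adjusted p = 0.329), and the knockout effect in EBs 0.65 ± 0.17 (adjusted p = 0.0516). When counts of the genes were summed with those of their copies, an analysis added after seeing the data, the knockout differentiation estimate became 0.46 and did not pass (adjusted p = 0.146). The call was lost in 10 of 19 alternatives, among them without knockout ESC replicate 1 and without any EB library (adjusted p up to 0.248). mt-Atp8, a small membrane subunit of complex V, was at 7.33 and 7.68 CPM in control ESCs, 7.58 and 6.48 in knockout ESCs, 19.7 and 9.88 in control EBs, and 6.85 and 9.28 in knockout EBs. Control EB replicate 1 was the highest of the 8 libraries, and the rise in control cells was 0.98 ± 0.30 (adjusted p = 0.0485). Without that library the estimate was 0.40 (adjusted p = 0.421). The call was also lost without either control ESC or either knockout EB library, with library totals and with a filter at a mean of 1 CPM. Of the 204 bases of mt-Atp8, 43 overlap mt-Atp6.

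The knockout EB libraries had the highest levels of mt-Nd3, and knockout EB replicate 2 the highest of mt-Nd4l. mt-Nd3 was at 5.05 and 3.87 CPM in control ESCs, 3.94 and 5.97 in knockout ESCs, 4.11 and 3.76 in control EBs, and 8.06 and 6.62 in knockout EBs, and the estimate in EBs was 0.90 ± 0.28 (adjusted p = 0.0893). mt-Nd4l was at 10.8 and 8.29 CPM in control ESCs, 7.44 and 9.39 in knockout ESCs, 6.37 and 8.08 in control EBs, and 10.8 and 18.3 in knockout EBs, and the estimate in EBs was 1.01 ± 0.28 (adjusted p = 0.0597). Summed with their copies, both passed the test, with 0.93 for mt-Nd3 (adjusted p = 0.0231) and 1.06 for mt-Nd4l (adjusted p = 0.0435). The summed mt-Nd3 also fell in control differentiation (-0.66, adjusted p = 0.0478). The copy Gm28438 alone was at 10.99 and 9.83 CPM in control ESCs, 8.24 and 10.4 in knockout ESCs, 4.64 and 6.27 in control EBs, and 11.4 and 9.59 in knockout EBs, and was itself called in EBs (0.95 ± 0.23, adjusted p = 0.0375). The remaining genes of this run were not called. mt-Co3 was at 114 and 81.2 CPM in control ESCs, 70.4 and 98.7 in knockout ESCs, 111 and 116 in control EBs, and 125 and 126 in knockout EBs, with an estimate of 0.57 ± 0.17 in knockout differentiation (adjusted p = 0.0502). mt-Atp6 was at 136 and 82.6 CPM in control ESCs, 82.8 and 123 in knockout ESCs, 71.3 and 112 in control EBs, and 112 and 106 in knockout EBs, and its 4 estimates ran from -0.25 to 0.25.

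By genome of origin, the nuclear members had median log2 changes of 0.07 in knockout ESCs, 0.03 in knockout EBs, -0.01 in control differentiation and -0.11 in knockout differentiation. The medians of the mitochondrial members were -0.01, 0.14, -0.03 and 0.17 in the same order. Correction for trends with GC content and gene length, fitted per library, moved the nuclear medians to -0.02 in knockout ESCs and -0.18 in knockout EBs. In that analysis 19 members were called lower in knockout EBs, against 11.5% of all genes. In control differentiation 16 were called higher, against 15.0% of all genes. These counts depended on that correction. Median exonic length was 1550 bases for the nuclear members and 3780 for all genes tested.

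Other genes of mitochondrial energy metabolism were counted from lists for the same contrasts. Over all 17125 genes tested, 4764 had an unadjusted p below 0.05 in knockout ESCs and 3667 in knockout EBs. Of 43 tested assembly factors, which build the complexes, 1 rose in knockout ESCs (Tmem70, 0.52, adjusted p = 0.0442) and none was called in knockout EBs by edgeR or DESeq2 (3 at an unadjusted p below 0.05). In control differentiation 7 of 43 fell and none rose, where 9.63% of all genes fell and 8.6% rose. The smallest adjusted p belonged to Lyrm7 (-1.85, adjusted p = 0.00449), a factor for the Rieske protein of complex III, Foxred1 (-0.40, adjusted p = 0.0236), a complex I factor, and Coa5 (-0.33, adjusted p = 0.0341), a complex IV factor. In knockout differentiation 5 of 43 fell and none rose (7.11% and 8.23% of all genes), among them Cox17 (-1.16, adjusted p = 0.0118), a copper chaperone of complex IV, Ndufaf4 (-0.67, adjusted p = 0.0118), a complex I factor, and Lyrm7 (-1.49, adjusted p = 0.0128). The lower counts ran from 0 to 12 and from 0 to 8 over 19 alternatives. In control differentiation 0 were left without control ESC replicate 2 and 1 without any other control or knockout EB library, DESeq2 called 2, and without a knockout ESC library 11 or 12 fell. In knockout differentiation 0 were left without knockout EB replicate 2 and 1 without replicate 1. The list's medians of -0.12 and -0.20 compare with -0.01 and 0.00 for all genes tested.

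Over all genes tested, 8.3% rose and 6.2% fell in knockout ESCs, and 4.75% and 2.04% in knockout EBs. Of 77 tested genes of the mitochondrial ribosome, none was called in knockout ESCs or EBs by edgeR or DESeq2. At an unadjusted p below 0.05 the counts were 6 and 3. Among these 77, 4 rose and 1 fell in control differentiation (8.6% and 9.63% of all genes). In knockout differentiation 1 rose and 2 fell (8.23% and 7.11% of all genes). The smallest adjusted p in control cells belonged to Mrps34 (0.66), Mrpl12 (0.33) and Mrpl17 (0.31), and in knockout cells Mrps34 rose (0.84, adjusted p = 0.00955) and Mrpl36 (-0.55) and Mrps6 (-0.78) fell. None of these calls of ribosome genes held in every one of the 19 alternatives. With GC and length trends removed, 18 ribosome genes were called lower in knockout EBs (11.5% of all genes). Of 16 tested genes of mitochondrial transcription and replication, Grsf1 (-0.66, adjusted p = 0.00151), an RNA granule protein, and the elongation factor Tefm (-0.61, adjusted p = 0.00685) fell in knockout ESCs, and Grsf1 fell in control differentiation (-0.32, adjusted p = 0.0446). Of 12 tested nuclear regulators, Esrrb, a receptor of the ERR family and a pluripotency factor, fell in knockout ESCs (-0.75, adjusted p = 0.00139). Esrrb also fell in control differentiation by 1.80 and in knockout differentiation by 0.80 (log2, adjusted p = 6.32e-06 and 0.00124), and its knockout effect differed between states (1.00, adjusted p = 0.0164). The call of that difference between states was lost without either control ESC library and without control EB replicate 2. Gabpa, an ETS factor, fell in control differentiation (-0.46, adjusted p = 0.0107). In knockout differentiation Myc (0.55, adjusted p = 0.0177) and the coactivator Pprc1 (0.48, adjusted p = 0.0361) rose. Neither rise was called in every one of the 19 alternatives. Among 17 carriers, the adenine nucleotide translocase Slc25a4 rose in knockout ESCs (0.67, adjusted p = 0.000507) and Slc25a5 fell by 0.30 (adjusted p = 0.0359). In control differentiation the translocase Slc25a31 rose (1.41, adjusted p = 0.0122) and Coq2, an enzyme of coenzyme Q synthesis, fell (-0.82, adjusted p = 0.00321), and in knockout differentiation Slc25a4 fell (-0.53, adjusted p = 0.00257). Of 19 genes of the TCA cycle and pyruvate dehydrogenase, 1 was called in knockout ESCs, the inhibitory kinase Pdk1 (-0.69, adjusted p = 0.000661), and none in knockout EBs by edgeR or DESeq2 (1 at an unadjusted p below 0.05). In control differentiation the pyruvate dehydrogenase subunit Pdha1 (-0.67, adjusted p = 0.00163) and the succinyl-CoA ligase subunit Sucla2 (-0.49, adjusted p = 0.0133) fell and malate dehydrogenase Mdh2 rose (0.27, adjusted p = 0.043). In knockout differentiation Pdk1 rose (0.85, adjusted p = 0.000229) and 3 fell, with Pdha1 at -0.44 and Sucla2 at -0.43. The knockout effect on Pdk1 was higher in EBs than in ESCs (0.61, adjusted p = 0.0474). That call was lost in the same 3 leave-out fits as that of Esrrb. Calls of Tmem70 and Slc25a5 in knockout ESCs did not hold in every alternative either. Nor did those of Grsf1, Slc25a31, Coq2 and Mdh2 in control differentiation, or of Pdha1 and Sucla2 in knockout differentiation. Other calls of these lists are not thereby shown to hold throughout.

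Glycolysis is the pathway that makes pyruvate from glucose. Of 15 tested entries for 14 glycolysis genes, 10 fell in knockout ESCs, 5 did not pass and none rose, where 6.2% of all genes tested fell and 8.3% rose. Their median log2 change was -0.40, against -0.03 for all genes tested. The smallest adjusted p belonged to Eno1 (-0.64, adjusted p = 0.00015), Hk2 (-0.58, adjusted p = 0.000872) and Pkm (-0.45, adjusted p = 0.000967). Over 19 alternatives 4 to 12 fell and 0 rose (4 without control ESC replicate 1 and 4 without replicate 2). In knockout EBs Pfkp, a phosphofructokinase, rose (0.55, adjusted p = 0.00386), and Eno1 (-0.39, adjusted p = 0.00618) and Ldha (-0.34, adjusted p = 0.00932) fell (4.75% of all genes rose and 2.04% fell). The list's median there was -0.18, and 0 to 9 fell over the alternatives, with 0 without either control EB library or knockout EB replicate 2. From ESCs to EBs 7 of 15 rose and 2 fell in control cells (8.6% and 9.63% of all genes), among them Hk2 (-0.91), Pfkp (-0.76) and Ldha (0.45). In knockout cells 11 rose and 1 fell (8.23% and 7.11%), with the smallest adjusted p for Pkm (0.53), Ldha (0.50) and Eno1 (0.50). In some of the 19 alternatives far fewer genes of the list were called higher, and in some more, in control and in knockout cells. The list's median ran from 0.19 to 0.27 in control and from 0.31 to 0.57 in knockout differentiation over these alternatives. The knockout effect was higher in EBs than in ESCs for Pfkp (0.82, adjusted p = 0.0129) and Hk2 (0.56, adjusted p = 0.0437). Both calls were lost without either control ESC library and without control EB replicate 2. The differentiation comparisons share the ESC libraries with the knockout contrast. Medians of the 98 OXPHOS members were 0.07 in knockout ESCs, -0.01 in control and -0.08 in knockout differentiation. Whether the 2 groups of genes differ was not tested, nor was the part of the extraembryonic endoderm markers, which were higher in knockout ESCs.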

How the data were processed

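RNA of 8 poly(A)-selected libraries (TruSeq RNA, per the labels' protocols) was measured, 2 for each of 4 groups. The deposited values are counts of reads per gene, which the authors did not normalize, with a merged exon length per gene. Per the submitters' processing notes, reads were handled with HISAT2, featureCounts and DESeq2 on build mm10. Versions, the strand setting, read pairing and the treatment of reads with several matches are not stated in these sources, so antisense partners and near-identical copies cannot be separated from a gene. The OXPHOS members and all lists were chosen with earlier results of these data known.

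Of the 55401 Ensembl identifiers, 55141 matched a symbol in GENCODE M21. Counts were fitted in edgeR 4.0.16 (R 4.3.3) with filterByExpr, TMM factors and 1 mean per group over all 8 libraries. glmQLFTest gave p-values that were adjusted by Benjamini-Hochberg over 17125 genes and called below 0.05. The common biological coefficient of variation was 0.132. SEs and 95% intervals are of log2 fold changes. CPM used TMM-adjusted library totals, and RPKM divided CPM by the merged length in kilobases. Totals of 12119763 to 16228426 counts per library limit the precision of members with few counts, and floors from 0 counts cover counting error only. The procedure was tested on simulated counts.

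Genes named are all mitochondrial members, up to 3 called members per complex and contrast, the nuclear member with the highest and lowest RPKM per complex, the listed isoform families and members at 0. From each related list, up to 3 called genes per contrast with the smallest adjusted p are named. Sdha, Sdhb, Cyc1, Uqcrfs1, Uqcrc1, Uqcrc2, Atp5a1, Atp5o, Gm28438 and the genes under other observations were added after their values were seen. Copies were found by blastn of member transcripts against all M21 transcripts. The 19 alternatives were DESeq2 1.42.0 (Wald test), other size factors, other filters, separate fits, GC and length corrections, a replicate block, each library left out, and genes summed with their nuclear copies, the last chosen after seeing the data.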

Additional observations from a re-analysis of the deposited data

How the results depend on the processing

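Counts of members called higher and lower were 4 and 0 (knockout ESCs), 1 and 0 (knockout EBs), 3 and 2 (control differentiation), 1 and 2 (knockout differentiation) and 0 and 0 (interaction). In that order of contrasts, removal of GC trends gave 8 and 1, 5 and 4, 14 and 4, 5 and 7, and 1 and 1. Removal of GC and length trends gave 2 and 3, 2 and 19, 16 and 2, 7 and 6, and 1 and 2. Without a low-count filter the members called were 7 and 2, 4 and 2, 5 and 3, 5 and 4, and 3 and 1. Shares of all genes were then 5.14% and 4.32%, 4.5% and 2.04%, 6.04% and 5.9%, 6.78% and 4.59%, and 1.4% and 0.799%. DESeq2 gave 4 and 1, 3 and 0, 3 and 2, 2 and 2, and 1 and 0 members. It called 7.8% and 5.94%, 5.02% and 2.43%, 8.66% and 8.39%, 8.5% and 6.74%, and 1.25% and 1.04% of all genes. Library totals without composition factors gave 6 and 0, 2 and 0, 1 and 5, 0 and 5, and 0 and 0 members. Of all genes they called 8.69% and 5.44%, 5.09% and 1.75%, 6.97% and 11.6%, 6.64% and 9.15%, and 0.712% and 0.607%. Fits of only the groups compared gave 0 and 0, 5 and 1, 11 and 6, and 0 and 1, with no interaction. Over all genes they called 5.88% and 2.52%, 9.06% and 7.94%, 18.2% and 16.4%, and 2.39% and 2.63%. A mean of at least 1 CPM gave 0 higher in knockout differentiation (8.38% of all genes). Genes summed with their nuclear copies gave 3 higher in knockout EBs (4.77% of all genes) and 0 higher in knockout differentiation (8.23%). Scaling without the mitochondrial genes, and median-of-ratios factors, left every count within 1.5 times.

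The replicate number as a block gave 3 and 1, 0 and 0, 2 and 2, 0 and 2, and 0 and 0. Of all genes it called 7.56% and 5.76%, 4.05% and 1.59%, 7.81% and 8.78%, 7.47% and 6.07%, and 0.549% and 0.461%. With this block the calls of Ndufa2, Ndufb10, mt-Atp8 and mt-Co2 were lost. The labels give no meaning to the numbers, and same-numbered libraries did not deviate together (correlations of replicate differences from -0.089 to 0.023), so the numbers do not pair the samples.

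With 1 library left out at a time, which leaves a group of 1 assumed to vary like the others, the counts were 0 to 13 higher and 0 to 3 lower in knockout ESCs, 0 to 6 and 0 to 1 in knockout EBs, 0 to 9 and 1 to 7 in control differentiation, 0 to 8 and 1 to 14 in knockout differentiation, and 0 to 4 and 0 to 3 for the interaction. Shares of all genes called moved as well. They fell in every contrast without any control or EB library, and mostly rose without a knockout ESC library. Without knockout ESC replicate 1 the median log2 change of the members was 0.13 in knockout ESCs and -0.1 in knockout differentiation. All genes had -0.03 and 0.03. Without knockout ESC replicate 2 the medians were 0.05 and -0.04 for the members, and -0.02 and 0.01 for all genes. Among the members named by the rule above, 1 estimate that passed the test turned its direction, that of Sdhd in knockout EBs. This was with GC and length trends removed (-0.25, adjusted p = 0.0486). Members outside that rule were not examined for a turn of direction. The causes were not tested. Cox6b2 was called in both differentiation contrasts in all 19 alternatives.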

Other observations

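Among transcripts of the mitochondrial genome that are no OXPHOS subunit genes, the 12S ribosomal RNA rose in knockout cells. This RNA, mt-Rnr1, is part of the small mitochondrial ribosomal subunit, and was looked at after its values were seen. It was at 265 and 266 CPM in control ESCs, 486 and 578 in knockout ESCs, 262 and 259 in control EBs, and 497 and 486 in knockout EBs. All 4 knockout libraries lay above all 4 control libraries. The change was 1.00 ± 0.09 in ESCs (log2, SE, edgeR adjusted p = 7.65e-05) and 0.92 ± 0.09 in EBs (adjusted p = 0.000348), and it was called in 19 of 19 alternatives in each. The 16S ribosomal RNA, mt-Rnr2, was at 299 and 308 CPM in control ESCs, 295 and 422 in knockout ESCs, 329.9 and 317 in control EBs, and 606 and 579 in knockout EBs. It rose in knockout EBs (0.87 ± 0.14, adjusted p = 0.00431), a call lost without either control EB library, and did not pass in ESCs (0.24 ± 0.14, adjusted p = 0.288). The difference between the knockout effects on mt-Rnr2 in EBs and in ESCs did not pass (0.64 ± 0.19, adjusted p = 0.178). From ESCs to EBs mt-Rnr2 rose in knockout cells (0.73 ± 0.14, adjusted p = 0.00642) and did not pass in control cells (0.09 ± 0.14, adjusted p = 0.693). The knockout call was lost when the fit held only the knockout libraries. Libraries were poly(A)-selected, and the share of these RNAs that was captured was not measured. Extraembryonic endoderm markers were also higher in the knockout libraries, and their part in these differences was not tested.

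Atpif1, the inhibitor of ATP synthase that the symbol rule passes over, rose from ESCs to EBs in knockout cells. It was at 54.6 and 50.2 CPM in control ESCs, 50.8 and 47.0 in knockout ESCs, 59.5 and 67.2 in control EBs, and 70.2 and 75.6 in knockout EBs. The change was 0.57 ± 0.11 in knockout cells (adjusted p = 0.00678) and 0.27 ± 0.11 in control cells (adjusted p = 0.111), and the difference between them did not pass (0.30 ± 0.15, adjusted p = 0.473). The call was lost without knockout EB replicate 2 and when the fit held only the knockout libraries (adjusted p up to 0.0766).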
